A study of Homo sapiens with 4 samples.

Results

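This account compares 2 of the 4 γH2AX ChIP-seq libraries of the series, made from SK-UT-1 (SK-UT1 in the sample labels), an established human uterine leiomyosarcoma cell line. The doxorubicin library came from cells given 0.5 µM doxorubicin, and the combination library from cells given 1 µM OTS186935, an inhibitor of SUV39H2, with 0.5 µM doxorubicin. The series title names a PARP inhibitor, but the labels of these samples give doxorubicin, which is followed here. The pair therefore shares the cell line and the doxorubicin dose and differs in OTS186935. The other libraries, DMSO at 0.1% and 1 µM OTS186935, serve here as background. The members were all intervals of the submitters' peak lists on chromosomes 1 to 22 and X, with overlapping or touching intervals of a list merged: 47495 doxorubicin peaks and 29213 combination peaks. A peak was called shared if it overlapped a peak of the other list by at least 1 base, and one-sided otherwise. With 1 library per condition there is no replicate spread, so no difference was tested and every value describes these libraries. Intervals in the text are exact 95% binomial (Clopper-Pearson) intervals and cover counting error only.

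γH2AX is the histone variant H2AX phosphorylated by kinases of the DNA damage response, and it spreads along chromatin on both sides of a DNA break. Doxorubicin intercalates into DNA and traps topoisomerase II on its cleaved substrate, which leaves breaks. SUV39H2 methylates lysine 9 of histone H3, the mark of constitutive heterochromatin, and has also been described as a methyltransferase of H2AX. In ChIP-seq, a peak is an interval with more sequenced fragments than its surroundings, so a wide, even domain of the mark need not appear as a peak, and a count of peaks is no measure of how much γH2AX there was.

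Peaks found in both lists, in doxorubicin only and in the combination only are illustrated by 6 promoters, 2 of each kind, taken after their values were seen from the 4 genes of each kind with the highest fold enrichment. Each sequence runs from 250 bases before to 50 bases after the annotated start, 5′ to 3′ on the gene's strand, from RefSeq (GRCh38.p14), with every CG dinucleotide in capitals, because the share of promoters rich in CG differed between the kinds of peak. MEI4, a gene of meiotic recombination (chr6:77650024-77650323, plus strand), and SPO11, which makes the breaks of meiosis (chr20:57329553-57329852, plus strand), had a peak over the promoter in both libraries. EXOC1L (chr4:55819540-55819839, plus strand) and the ubiquitin ligase gene MARCHF11 (chr5:16179742-16180041, minus strand) had one with doxorubicin alone. The zinc finger gene ZNF772 (chr19:57477517-57477816, minus strand) and the testis kinase gene STK31 (chr7:23709969-23710268, plus strand) had one with the combination alone. Here and below, alone is meant within this pair of libraries. Within 1 kb of a gene end, DMSO and OTS186935 also had peaks at MARCHF11 (4.84-fold and 4.59-fold), ZNF772 (6.40 and 7.74) and STK31 (10.6 and 6.59). EXOC1L had one with OTS186935 (3.58-fold).
MEI4: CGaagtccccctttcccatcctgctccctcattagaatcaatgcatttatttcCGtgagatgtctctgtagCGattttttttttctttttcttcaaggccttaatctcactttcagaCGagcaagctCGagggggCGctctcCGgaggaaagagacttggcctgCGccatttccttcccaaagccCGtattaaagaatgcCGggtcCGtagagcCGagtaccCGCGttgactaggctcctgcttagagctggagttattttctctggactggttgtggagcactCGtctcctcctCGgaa
SPO11: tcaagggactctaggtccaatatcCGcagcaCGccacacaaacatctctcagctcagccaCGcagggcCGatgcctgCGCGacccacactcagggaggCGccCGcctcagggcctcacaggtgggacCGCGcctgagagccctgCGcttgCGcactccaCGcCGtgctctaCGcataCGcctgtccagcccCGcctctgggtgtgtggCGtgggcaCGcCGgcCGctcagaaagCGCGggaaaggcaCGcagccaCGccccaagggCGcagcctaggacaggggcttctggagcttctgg
EXOC1L: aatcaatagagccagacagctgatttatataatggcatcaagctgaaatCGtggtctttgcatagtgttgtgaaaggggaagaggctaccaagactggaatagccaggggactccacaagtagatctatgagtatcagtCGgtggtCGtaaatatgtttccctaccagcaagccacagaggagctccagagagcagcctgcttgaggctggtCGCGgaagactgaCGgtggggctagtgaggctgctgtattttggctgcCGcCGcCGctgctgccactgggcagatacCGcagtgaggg
MARCHF11: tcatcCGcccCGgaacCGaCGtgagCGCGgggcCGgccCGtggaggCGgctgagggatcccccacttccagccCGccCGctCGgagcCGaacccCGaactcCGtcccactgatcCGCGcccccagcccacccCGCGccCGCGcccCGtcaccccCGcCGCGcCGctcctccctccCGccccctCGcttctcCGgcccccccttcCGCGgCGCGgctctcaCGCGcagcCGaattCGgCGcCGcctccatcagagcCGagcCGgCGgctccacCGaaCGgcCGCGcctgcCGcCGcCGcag
ZNF772: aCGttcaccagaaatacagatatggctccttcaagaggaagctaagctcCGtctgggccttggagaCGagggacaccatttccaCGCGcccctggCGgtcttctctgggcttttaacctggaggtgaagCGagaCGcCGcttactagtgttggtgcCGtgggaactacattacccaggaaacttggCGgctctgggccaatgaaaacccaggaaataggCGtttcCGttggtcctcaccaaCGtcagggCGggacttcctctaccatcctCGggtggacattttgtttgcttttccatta
STK31: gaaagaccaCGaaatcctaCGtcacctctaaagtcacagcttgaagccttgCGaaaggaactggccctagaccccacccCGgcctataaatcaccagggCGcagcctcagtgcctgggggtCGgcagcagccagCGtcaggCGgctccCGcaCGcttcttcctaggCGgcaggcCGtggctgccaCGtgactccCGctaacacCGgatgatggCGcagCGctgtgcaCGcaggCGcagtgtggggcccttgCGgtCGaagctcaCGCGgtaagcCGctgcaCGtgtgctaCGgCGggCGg
These stretches hold 16 CG in MEI4, 26 in SPO11, 10 in EXOC1L, 49 in MARCHF11, 16 in ZNF772 and 28 in STK31, so each kind spans a wide range. The MEI4 peak lay at chr6:77650205-77650734 with doxorubicin and at chr6:77650210-77650713 with the combination, nearly the same interval. The SPO11 peaks, chr20:57329617-57330031 and chr20:57329626-57330044, also began within 10 bases of each other. The ZNF772 peak covers only the last bases printed and goes on into the gene.

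The combination list held 38.5% fewer peaks than the doxorubicin list, or 0.615 peaks for each doxorubicin peak (0.606 to 0.624). Doxorubicin peaks covered 22.2 Mb and combination peaks 13.2 Mb, a ratio of 0.597. The background level, worked out from each list's fold and −log10 p values, was 0.389 fragments per position with doxorubicin and 0.428 with the combination, so the library with fewer peaks had the higher background by a ratio of 1.10. The lowest −log10 p listed was 2.92 with doxorubicin and 3.08 with the combination. Median summit height was 7 fragments in both lists, so most peaks rest on few fragments. The DMSO and OTS186935 lists held 72858 and 59710 peaks.

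Of doxorubicin peaks, 12987 of 47495 were shared with the combination, 27.3% (26.9 to 27.7). In the other direction, 13015 of 29213 combination peaks were shared, 44.6% (44.0 to 45.1). The combination list was thus no subset of the doxorubicin list: 16198 combination peaks had no doxorubicin peak on them, beside 34508 one-sided doxorubicin peaks. Joined over the pair, the peaks formed 63646 regions, of which 12944 (20.3%) were covered in both, 34506 (54.2%) in doxorubicin only and 16196 (25.4%) in the combination only. Shared sequence amounted to 5.17 Mb, 23.3% of the doxorubicin and 39.0% of the combination length. One-sided combination peaks were a median 12.6 kb from the nearest doxorubicin peak, and 42.8% lay within 10 kb of one. One-sided doxorubicin peaks were a median 21.4 kb from the nearest combination peak, with 28.4% within 10 kb, in a list that has fewer peaks to be near.

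Shared peaks were wider and stronger than one-sided ones in both lists. Median width was 500 bp for shared and 383 bp for one-sided doxorubicin peaks, and 456 bp and 368 bp for combination peaks. A width over 1 kb was found in 5.57% of shared and 0.866% of one-sided doxorubicin peaks, against 2.94% and 0.377% in the combination list. A −log10 q of 5 or more, the value the submitters' caller gives for a peak's adjusted p, was reached by 19.9% of shared and 6.30% of one-sided doxorubicin peaks. For the combination these shares were 12.1% and 5.57%. Still stronger peaks, at a −log10 q of 10 or more, numbered 183 shared and 49 one-sided with doxorubicin, and 33 shared and 3 one-sided with the combination.

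The peak found at the head of both lists lay nearest to NBPF1, of a family of near-identical genes in which the placing of reads is uncertain. With doxorubicin it spanned chr1:16618778-16619263 with 43 fragments at the summit and a fold enrichment over local background of 14.8, and with the combination chr1:16618787-16619189 with 27 fragments and 10.4-fold. Fold enrichment comes from the authors' caller and serves here only to describe and rank peaks within a list. The one-sided doxorubicin peak of highest −log10 q lay in PGBD2, a gene derived from a transposase, at chr1:248911644-248911974 with 28 fragments, near the end of the long arm, and DMSO and OTS186935 had a peak there too. In the combination the one-sided peak of highest −log10 q, chr2:60111-60578 near FAM110C with 36 fragments, was likewise present in DMSO and OTS186935 and lay 2.01 kb from a doxorubicin peak. The next, chr2:125720934-125721491 near CNTNAP5, a gene of neuronal adhesion, had 18 fragments and 11.3-fold enrichment and was found in OTS186935 but not in DMSO.

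The largest differences in number lay at the lowest summits, while the ratio was low at both the lowest and the highest summits. Summits of 3 fragments accounted for 3627 doxorubicin peaks and 0 combination peaks. This 0 was fixed by the limits of the lists. Over the combination's background of 0.428 fragments, 3 fragments do not reach its lowest listed −log10 p of 3.08. Over the doxorubicin background of 0.389 they do reach that list's 2.92. At 4 fragments the lists held 7095 and 2208 peaks, at 5 fragments 6813 and 4445, and at 6 fragments 5814 and 4881. At 7 fragments they were nearest in size, with 4816 and 4465 peaks, a ratio of 0.93 (0.89 to 0.97). Above that the ratio was lower again, 0.82 at 9 to 10 fragments, 0.58 at 11 to 13, 0.34 at 14 to 19 and 0.20 (0.16 to 0.24) at 20 or more, where there were 612 and 120 peaks. The lowest summit listed was 3 fragments with doxorubicin and 4 with the combination. With both lists limited to summits of 6 or more fragments, a limit chosen after the data had been seen, the ratio was 0.753. Of peaks that reached a −log10 q of 5 there were 4762 and 2475, a ratio of 0.520.

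The shared part was larger among high summits in both lists. It was 9.32% of doxorubicin peaks at 3 fragments, 26.1% at 6, 39.2% at 9 to 10, 34.6% at 14 to 19 and 55.4% at 20 or more. Among combination peaks it was 24.4% at 4 fragments, 37.1% at 6, 57.0% at 9 to 10, 61.8% at 14 to 19 and 85.0% (77.3 to 90.9) at 20 or more. Most of the highest combination summits thus stood on a doxorubicin peak, while most doxorubicin summits of 14 to 19 fragments had no combination peak.

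**Figure D1:**
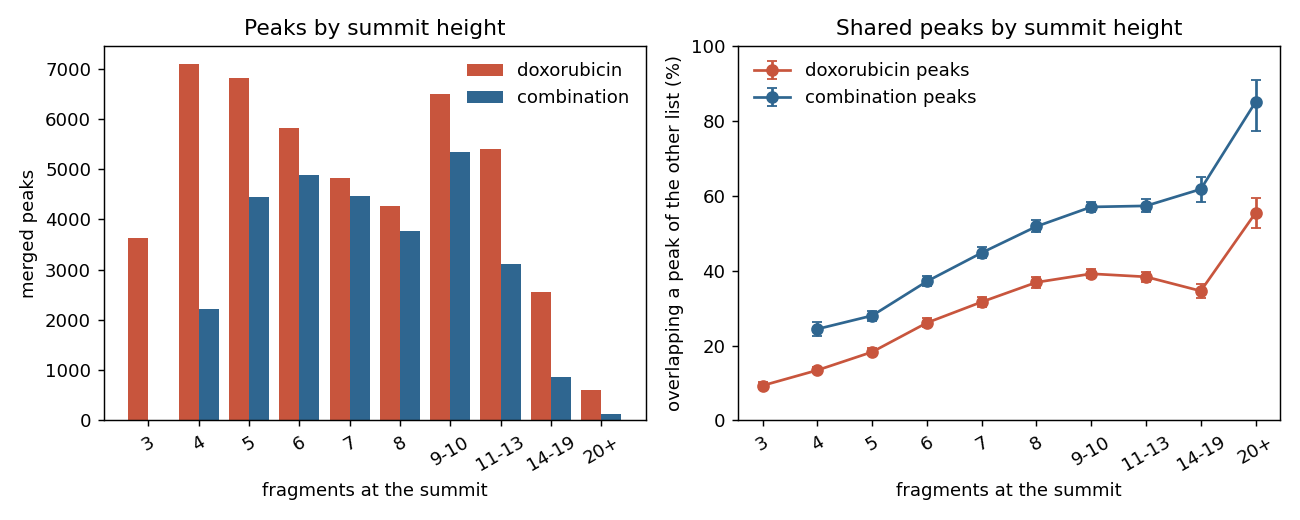
Left, merged peaks of the doxorubicin and combination libraries by the number of fragments at the summit. Right, the percent of each library's peaks that overlap a peak of the other, with exact 95% binomial intervals. The bars are nearest in height at 7 fragments and farthest apart at 3 and 4, and the ratio is low again from 14 up. A summit of 3 fragments could not enter the combination list.

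Width went with sharing as well. Peaks under 400 bp were shared in 16.1% of cases with doxorubicin and 31.4% with the combination, those from 400 to under 600 bp in 30.5% and 51.7%, those from 600 to under 1000 bp in 49.5% and 70.7%, and those from 1000 to under 2000 bp in 70.6% and 86.3%. Only 9 doxorubicin peaks reached 2000 bp, 7 of them shared. A wider interval has more room to overlap another, and width also goes with strength. Within the middle 20% of peaks by −log10 p, the shared part was 15.7% in the narrowest 25% and 37.8% in the widest 25% of doxorubicin peaks. For the combination it was 24.8% and 66.4%. Strength was not fully even there. From narrowest to widest, the median summit rose from 5 to 7 fragments with doxorubicin and from 6 to 8 with the combination. Median −log10 p went from 5.46 to 5.31 and from 5.29 to 5.63. The part of summit height in this difference was not tested. The shortest listed interval was 295 bp with doxorubicin and 296 bp with the combination.

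**Figure D2:**
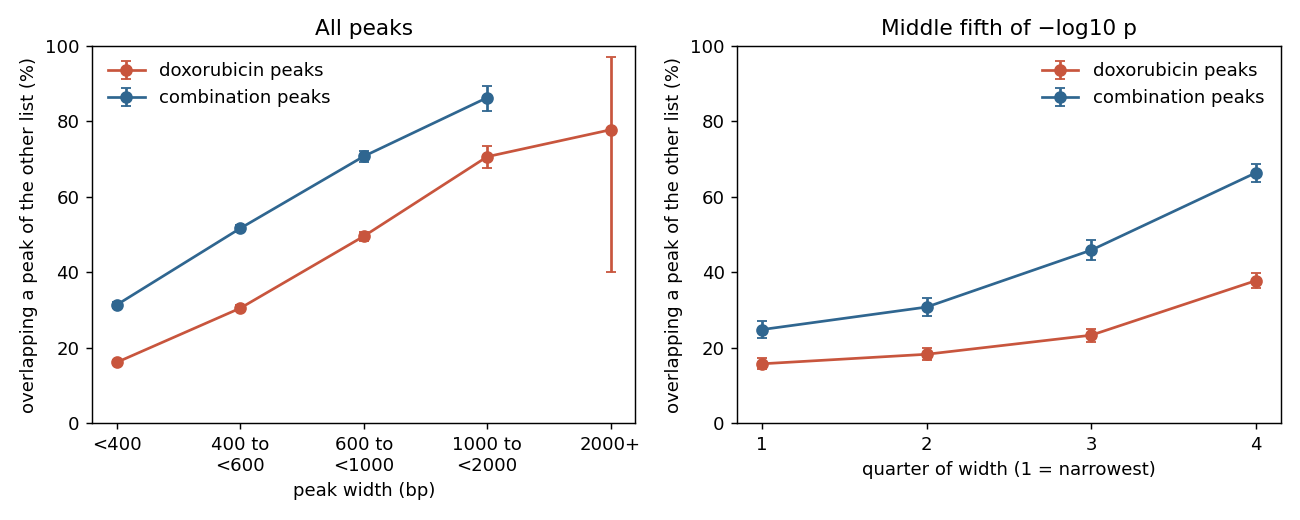
Percent of doxorubicin and combination peaks that overlap a peak of the other library, by peak width for all peaks (left) and by width rank, in 4 equal groups, for peaks in the middle 20% by −log10 p (right), with exact 95% binomial intervals. The combination had too few peaks of 2000 bp or more to plot. The shared percent is higher in each wider class, also within the middle 20% by −log10 p, where median summit height was still greater in the widest group.

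Across chromosomes the ratio of combination to doxorubicin peaks was nearly even, with 1 exception. On 22 of 23 chromosomes it lay between 0.578 on chromosome 19 and 0.659 on chromosome 6 (0.620 to 0.701). On chromosome 13 it was 0.428 (0.365 to 0.500), from 542 doxorubicin and 232 combination peaks, or 4.74 and 2.03 per Mb. Chromosomes 13 and 6 were the only 2 whose interval did not include the genome-wide ratio, among 23 intervals. Gene density did not order the chromosomes: Pearson's r between the ratio and protein-coding genes per Mb was 0.037 and Spearman's rho 0.048, over 23 chromosomes of the same pair of libraries.

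Chromosome 13 also had the smallest shared parts of the 23, 15.7% of its doxorubicin and 37.1% of its combination peaks, against 27.5% and 44.6% on the others. Its ratio at summits of 5 or fewer fragments was 0.31 (0.24 to 0.39) against 0.38 elsewhere, a value inside that interval. At 6 or more fragments it was 0.59 (0.47 to 0.73) against 0.75. Of those that reached a −log10 q of 5 it had 28 doxorubicin and 8 combination peaks, 0.29 (0.11 to 0.64) against 0.52 elsewhere. Low summits were common there: 57.2% of doxorubicin peaks on chromosome 13 had 5 or fewer fragments, against 36.7% on the other chromosomes. The local background at chromosome 13 summits had a median of 0.41 fragments with doxorubicin and 0.56 with the combination, and at chromosome 19 summits of 1.43 and 1.32. Chromosomes 4 (0.41 and 0.58) and X (0.44 and 0.59) had a background near that of chromosome 13, with peak ratios of 0.610 and 0.639. Between OTS186935 and DMSO, the ratio on chromosome 13 was 0.779, also the lowest of the 23, with the others between 0.796 on chromosome 9 and 0.869 on X. The part of low local background in the chromosome 13 value was not tested.

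**Figure D3:**
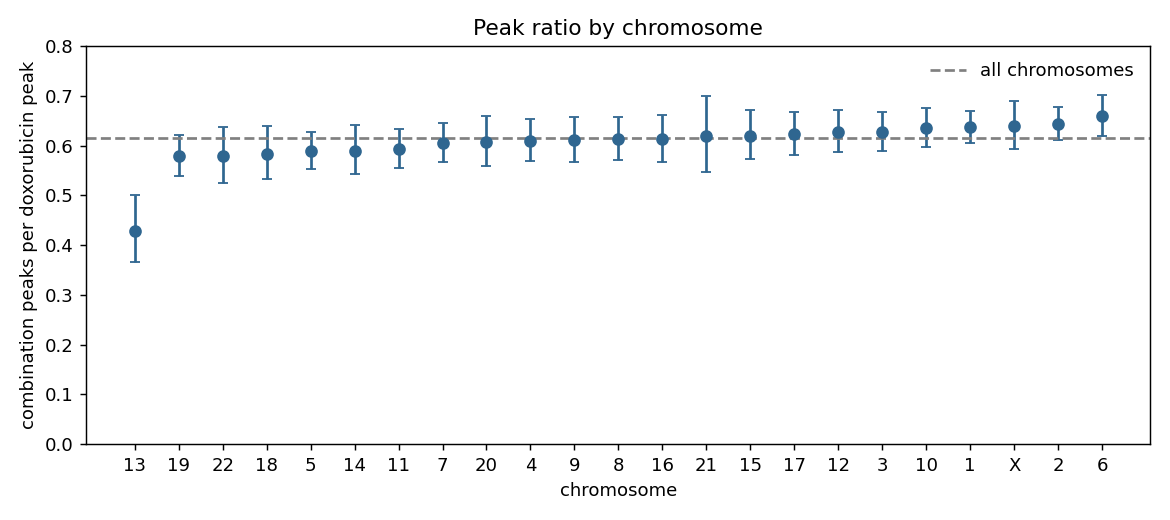
Combination peaks per doxorubicin peak on each chromosome, ordered by the ratio, with exact 95% binomial intervals of counting error, and the genome-wide ratio of 0.615 as a dashed line. Chromosome 13, at 0.428, stands below the line and the other chromosomes lie near it.

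At 1 Mb the pair of libraries followed the same landscape. Of 3043 bins, 2850 held a peak, and doxorubicin had more peaks in 2500 (87.7%), the combination in 191 (6.7%, interval 5.81 to 7.68), and 159 (5.58%) were equal. Only 54 bins held doxorubicin peaks alone and 7 held combination peaks alone. The number of peaks per bin went together, with Pearson's r 0.915 and Spearman's rho 0.901 over 2850 bins, which share the mappability and gene content of the sequence. In the 1706 bins with 10 or more doxorubicin peaks, the ratio had a median of 0.60, with 90% of bins between 0.313 and 0.938. The combination had more peaks in 36 of these, and at most 50% of the doxorubicin number in 543 (31.8%).

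The bins with the largest excess of doxorubicin peaks in number lay at or near chromosome ends. An excess in number grows with the number of peaks a bin holds, so it shows no lower ratio there. The ratio in the outer 1 Mb of chromosomes was 0.589 (0.550 to 0.630), beside 0.615 genome-wide. The first Mb of chromosome 5 (chr5:1-1000000), which holds SDHA of the respiratory chain, the aryl hydrocarbon receptor repressor gene AHRR and the meiotic ATPase gene TRIP13, had 110 doxorubicin and 63 combination peaks. Its neighbour chr5:1000001-2000000, with the telomerase gene TERT, had 65 and 27. On the long arm of that chromosome, chr5:179000001-180000000, with the autophagy receptor gene SQSTM1 and the chaperone gene CANX, had 68 and 25. The bin chr2:241000001-242000000, with PDCD1, which encodes the immune checkpoint receptor PD-1, had 82 and 36, and chr7:1-1000000, with the growth factor gene PDGFA, had 88 and 45. In each of these the DMSO number was the highest of the 4 libraries.

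Bins with more combination peaks had small excesses. The largest were 6 peaks, at chr12:106000001-107000000 with the kinase gene NUAK1 (16 doxorubicin and 22 combination peaks) and at chr6:126000001-127000000 with the centromere protein gene CENPW (3 and 9). An excess of 5 was found in 6 bins, among them chr17:67000001-68000000 with the chromatin remodelling gene BPTF (18 and 23), chr2:39000001-40000000 with the Ras exchange factor gene SOS1 (10 and 15) and chr6:27000001-28000000, which holds a cluster of histone genes (34 and 39). The histone bin had 68 peaks in DMSO and 61 with OTS186935, so both libraries with doxorubicin were below those without it.

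Gene density had little bearing on the ratio over all peaks and a larger one over strong peaks. In bins with no protein-coding gene, doxorubicin had 4.19 and the combination 2.52 peaks per Mb, a ratio of 0.601. With 1 to 4 genes the ratio was 0.616, with 5 to 9 genes 0.636, with 10 to 19 genes 0.603 and with 20 or more genes 0.595, where the densities were 34.3 and 20.4 peaks per Mb. Among those that reached a −log10 q of 5, the ratio was 0.77 (0.64 to 0.93) in bins without genes, from 260 doxorubicin and 200 combination peaks, then 0.63, 0.49 and 0.45, and 0.37 (0.32 to 0.43) in bins with 20 or more genes, from 679 and 251 peaks. Among summits of 6 or more fragments it went from 0.95 to 0.64. Background moved with these classes: its median at summits was 0.389 fragments with doxorubicin and 0.459 with the combination in bins without genes, and 1.39 and 1.29 in bins with 20 or more. Thus doxorubicin had the lower local background in gene-poor bins and the higher one in gene-dense bins, and the part of this in the ratio of strong peaks was not tested. The shared part was 31.1% of doxorubicin and 51.7% of combination peaks in bins without genes, and 26.9% and 45.4% in bins with 20 or more.

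**Figure D4:**
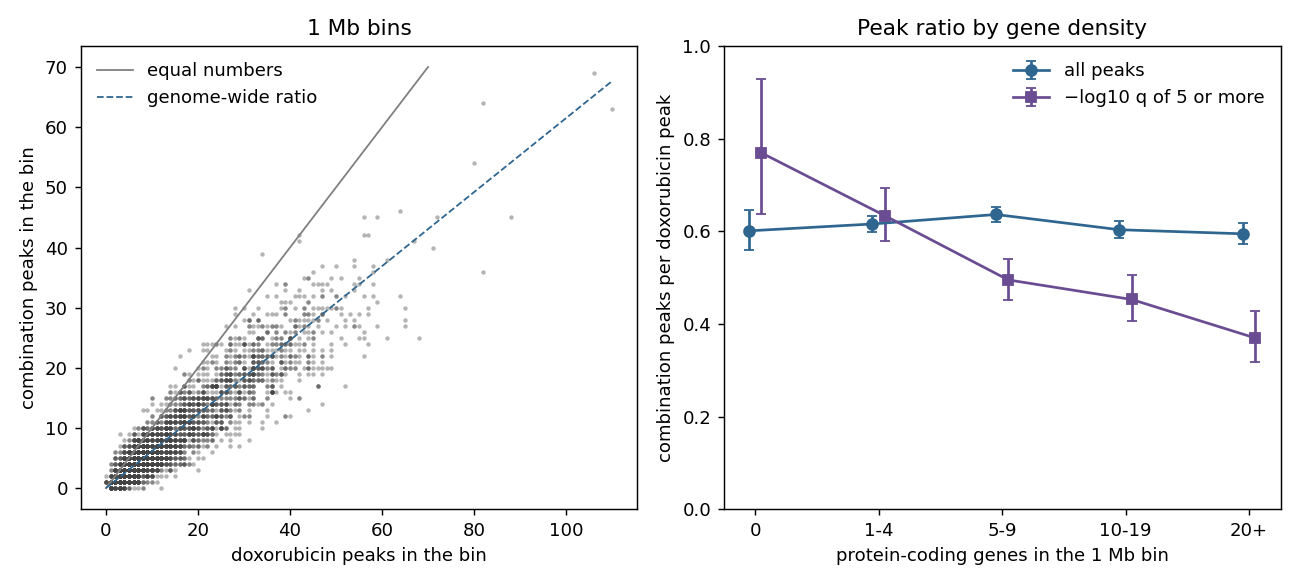
Left, doxorubicin and combination peaks in each of 2850 bins of 1 Mb, with lines for equal numbers and for the genome-wide ratio of 0.615. Right, combination peaks per doxorubicin peak by the number of protein-coding genes in the bin, for all peaks and for those with a −log10 q of 5 or more, with exact 95% binomial intervals. The points follow the lower line, and only the strong peaks show a lower ratio in each denser class.

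Chromosome ends were set apart by shared peaks rather than by the ratio. In the outer 1 Mb the lists had 2319 and 1365 peaks, a ratio of 0.589 (0.550 to 0.630), and more than 20 Mb from an end it was 0.623 (0.612 to 0.636). Shared peaks made up 37.0% (35.0 to 39.0) of doxorubicin and 63.7% (61.1 to 66.2) of combination peaks in the outer 1 Mb. From 1 to 5 Mb they made up 25.8% and 43.4%, and beyond 20 Mb 27.6% and 44.4%. Peaks of the outer 1 Mb also had higher summits, a median of 14 fragments with doxorubicin and 11 with the combination, against 6 and 7 beyond 20 Mb.

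The 2 kinds of one-sided peak had near shares in gene bodies and at gene ends and differed at chromosome ends, where the outer 1 Mb held 4.23% of one-sided doxorubicin and 3.06% of one-sided combination peaks. Gene bodies of protein-coding genes held 57.1% of one-sided doxorubicin and 56.2% of one-sided combination peaks, against 54.5% and 54.3% of shared ones. Windows of 1 kb either side of an annotated gene end, called gene-end windows here, were touched by 12.7% of shared peaks in both lists, and by 7.76% and 7.62% of one-sided doxorubicin and combination peaks. In genes longer than 500 kb, 314 in number, there were 2697 doxorubicin and 1652 combination peaks, a ratio of 0.613, close to the 0.607 over all gene bodies.

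Shared peaks were for the most part present in the libraries without doxorubicin. DMSO had a peak at 82.0% of shared and 43.6% of one-sided doxorubicin peaks, and at 81.9% and 41.1% of those of the combination. With OTS186935 alone these shares were 75.6%, 36.4%, 75.4% and 34.6%. One-sided peaks found in neither of those libraries numbered 15353 (44.5%) with doxorubicin and 7522 (46.4%) with the combination, while 1332 (10.3%) of shared doxorubicin peaks were found in neither. Peaks found with OTS186935 and not in DMSO overlapped 11.9% of one-sided doxorubicin and 12.5% of one-sided combination peaks.

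At gene ends, 4367 of 19970 protein-coding genes (21.9%) had a doxorubicin peak and 2946 (14.8%) a combination peak. Both libraries had one at 1858 genes (9.3%), doxorubicin alone at 2509 (12.6%) and the combination alone at 1088 (5.45%). The genes with a doxorubicin peak kept one in the combination in 42.5% of cases, beside 27.3% of single peaks. These measures are unlike, since a combination peak in either end window of a gene counted, while a single peak had to be overlapped itself. Of the 1088 genes with a combination peak alone, 716 had one in DMSO, 574 with OTS186935 and 254 in neither. Of the 2509 with a doxorubicin peak alone, 1709 had one in DMSO and 535 in neither other library.

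The genes with the strongest gene-end peaks in the combination and none with doxorubicin were led by ZNF772 (8.64-fold, −log10 q 8.59, 12 fragments, chr19:57477122-57477541). GLRA3, a glycine receptor subunit gene, followed at its start (8.41-fold, 11 fragments, chr4:174829071-174829447), with a peak in OTS186935 and none in DMSO. CTAGE1 (8.31-fold), of a family of near-identical genes and so uncertain, had a peak in no other library. The others were BCAS1 (7.91-fold), a gene of myelinating cells, RITA1 (7.66-fold), which encodes a regulator of Notch signalling, C4orf36 and the skin cornified envelope gene LCE4A (both 7.54-fold), the mitochondrial carrier gene SLC25A51 (7.47-fold), the galactokinase gene GALK2 (7.46-fold) and the peroxisomal oxidase gene ACOX2 (7.40-fold). Their summits had 10 to 18 fragments, and 4 of the 10, GLRA3, CTAGE1, BCAS1 and SLC25A51, had no gene-end peak in DMSO. At C4orf36 the combination peak (chr4:86876161-86876480) and the strongest DMSO peak (chr4:86935028-86935825) lay at opposite gene ends.

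In the other direction the olfactory receptor gene OR2T10 came first (11.5-fold with doxorubicin, 17 fragments, chr1:248590073-248590394). The immune GTPase gene GIMAP7 (10.7-fold, 15 fragments) followed with a peak at its start. The zinc finger genes ZNF534 (8.84-fold) and ZNF180 (8.64-fold) came next, then the neighbours ACP1, a phosphatase gene, and SH3YL1, which share a peak (8.37-fold). SPRY3, of the sprouty family, and TMLHE, of carnitine synthesis, share another on the long arm of chromosome X (8.23-fold). EXOC1L (8.23-fold) and MARCHF11 (8.19-fold) ended this group, and EXOC1L was its only member without a DMSO peak in either gene-end window. At ZNF534 the doxorubicin peak (chr19:52451230-52451666) and the strongest DMSO peak (chr19:52428659-52429310) lay at opposite gene ends.

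Where both libraries had a gene-end peak, the strongest by the lower of the pair of folds was at CASR, the calcium-sensing receptor gene, at 7.83-fold with doxorubicin and 8.59-fold with the combination. The kinase gene PSKH2 had 7.74 and 7.66, the collagen gene COL12A1 7.39 and 7.84, and SCAF4, which encodes a regulator of transcription termination, 7.39 and 10.98. SRPRB, of the signal recognition particle receptor, had 8.26 and 7.28, and ZMYND11, a reader of methylated histone H3.3, 7.53 and 7.22. Several of the rest are genes of the germ line: MEI4 (7.20 and 9.42), the testis carrier gene SLC25A31 (7.08 and 8.47) and the testis RNA-binding gene ADAD1 (7.32 and 6.91), beside LYPD5 (6.91 and 7.01). All 10 had a gene-end peak in DMSO and OTS186935 too.

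Gene lists were compared by the number of members with a gene-end peak, beside the 21.9% and 14.8% of all protein-coding genes. Counts in windows of 2.5 kb stand beside larger shares of all genes, 34.6% with doxorubicin and 23.6% with the combination. Of 20 lists with 12 to 78 genes, 14 had fewer such members with the combination than with doxorubicin, 3 an equal number and 3 more. Over all genes with a gene-end peak, the median of the highest fold per gene was 4.17 with doxorubicin and 4.17 with the combination, so most list members named below have peaks of ordinary height.

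Genes of DNA damage and its repair had few peaks, apart from the topoisomerases with doxorubicin. Of 12 genes for topoisomerases and the enzymes that clear them from DNA ends, 4 had a doxorubicin peak and 0 a combination peak. The 4 were TOP1 (5.76-fold), the single-strand enzyme, TDP1 (5.04-fold), which removes trapped TOP1, the mitochondrial TOP1MT (4.31-fold) and TOP2B (3.60-fold), a target of doxorubicin. DMSO had a peak at 3 of the 12, TOP1, TOP1MT and TOP2B (4.13-fold), and OTS186935 at 2. In a list this small the difference from all genes was not tested. With windows of 2.5 kb the list had 4 with doxorubicin and 1 with the combination (33.3% and 8.33%), beside 34.6% and 23.6% of all genes. Of 17 genes of H2AX damage signalling, the gene for H2AX itself had a peak with doxorubicin alone (4.30-fold) and the ubiquitin ligase gene RNF8 with the combination alone (3.57-fold). Homologous recombination had 2 of 21 in each library, RAD54L in both (4.28 and 4.94), RPA1 with doxorubicin and the nuclease gene DNA2 with the combination. The PARP and end joining list had 3 and 2 of 23, with APTX, which repairs abortive ligation ends, in both (4.90 and 3.70), the DNA ligase gene LIG1 and the polymerase gene POLL with doxorubicin, and NHEJ1 with the combination. Apart from the topoisomerases, these lists had a share below all genes in both libraries.

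The genes of H3K9 methylation and heterochromatin, the process SUV39H2 belongs to, had 3 doxorubicin and 2 combination members with a peak among 27 genes. EHMT2, which encodes the H3K9 methyltransferase G9a, had one in both (3.80 and 3.31). SUV39H1, the relative of SUV39H2, had one with doxorubicin (3.04-fold), as did the heterochromatin protein gene CBX1 (3.60-fold), and the H3K9 demethylase gene KDM4D had one with the combination (4.85-fold). SUV39H2 was not among the members with a peak in either library.

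The counts that follow stand beside 21.9% of all protein-coding genes with a doxorubicin peak, 14.8% with a combination peak and 9.3% with both. Of 22 p53 target genes, 6 had a doxorubicin peak and 3 a combination peak. The apoptosis genes BBC3 (6.87 and 3.90) and AEN (3.54 and 4.20) and the stress gene SESN2 (6.41 and 5.48) had both, and GADD45A (3.77-fold), the kinase gene PLK3 (3.62-fold) and TP53INP1 (5.04-fold) had one with doxorubicin alone. Immediate early and stress genes had 4 and 2 of 29 (13.8% and 6.90%), FOSL2, JUNB, ZFP36 and DUSP1 with doxorubicin and KLF10 and CCN2 with the combination. None was in common, in a list with low shares in both libraries. With windows of 2.5 kb, 5 of the 29 had peaks of both (17.2%), beside 15.8% of all genes. Interferon response genes had 5 and 1 of 27, with XAF1 in both (4.94 and 5.95) and BST2, RSAD2, OASL and ISG20 with doxorubicin alone. Drug transport and detoxification genes had 4 and 1 of 17, with the aldose reductase gene AKR1B1 in both (6.12 and 3.46). Within this list the lipid transporter gene ABCB4 (6.48-fold), GSTP1 and TXN had a peak with doxorubicin alone. Mitosis and replication licensing genes had 4 and 1 of 29, with CDC20, AURKB, CDC6 and CDC45 on one side and MKI67, the proliferation marker, on the other. Genes altered in leiomyosarcoma had 6 and 1 of 19, with ALK in both (4.30 and 5.00) and CCNE1 (5.85-fold), HMGA2, MED12, HMGA1 and CCND1 with doxorubicin alone.

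The 3 lists with more members in the combination were smooth muscle genes, replication-dependent histone genes and common fragile site genes. Smooth muscle genes, which mark the lineage of the tumour, had 3 and 5 of 21. The actin-binding gene CALD1 (3.60 and 5.54), the desmin gene DES (4.10 and 4.93) and the vinculin gene VCL (3.28 and 4.42) had both, and MYLK, which encodes myosin light chain kinase (5.54-fold), and the transcription factor gene SRF (2.99-fold) had one with the combination alone. With windows of 2.5 kb the counts were 6 and 5, so the order turned. Histone genes had 13 and 15 of 64, with 8 in both. Neighbouring histone genes share peaks and resemble each other closely, and these counts rest on 10 and 11 distinct peaks. Members with a combination peak alone were H2AC13, H2BC13, H2AC14, H2BC14, H2AC15, H2BC15 and H3C12, on 4 peaks, with 3.50-fold to 4.68-fold enrichment. With windows of 2.5 kb they had 16 and 24.

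Common fragile site genes, long genes that break under replication stress, had gene-end peaks at 6 and 7 of 20, and at 9 and 9 with windows of 2.5 kb. WWOX (6.22-fold) and AUTS2 (5.12-fold) were among those with a combination peak alone. Along their whole bodies they had 229 doxorubicin and 114 combination peaks. The ratio was 0.498, against 0.607 for all gene bodies and 0.613 for genes longer than 500 kb. No counting interval was worked out for this ratio of small numbers, so a true difference from all gene bodies is not shown. CNTNAP2 had 21 and 5 peaks along its body, WWOX 13 and 4 and CSMD1 24 and 12, while AUTS2 had 19 and 15 and the dystrophin gene DMD 8 and 9.

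Among the 20 lists and with windows of 1 kb, the highest shares were those of neuronal, ion channel and epithelial genes. With windows of 2.5 kb HOX genes had the highest doxorubicin share, 25 of 39, beside 34.6% of all genes. Common fragile site genes then passed epithelial genes in the combination, 9 of 20 against 6 of 16, beside 23.6% of all genes. Neuronal genes had 8 of 14 in each library, 7 of them in both: the synaptic genes SYT1 (6.56 and 6.11) and SYN1, the RNA-binding ELAVL4 (6.43 and 5.84), STMN2 and the neurofilament genes NEFH, NEFL and NEFM. Potassium and sodium channel genes had 14 and 12 of 28, with KCNN2 strongest (7.60 and 6.16). Epithelial genes had 8 and 6 of 16, with GRHL2, KRT5, CLDN7 and CLDN3 among those in both, and CDH1 (3.93-fold) with doxorubicin alone. HOX genes, which lie in clusters and share peaks, had 17 and 8 of 39. Collagen genes had 13 and 9 of 44, with COL12A1, COL11A1 (6.90 and 6.28), COL6A6, COL6A3, COL2A1 and COL26A1 in both. Ribosomal protein genes had 10 and 5 of 78, shares below those of all genes, with RPS23 (7.62-fold with doxorubicin alone) the strongest and RPL10 among those in both. Expression was not measured in these libraries.

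**Figure D5:**
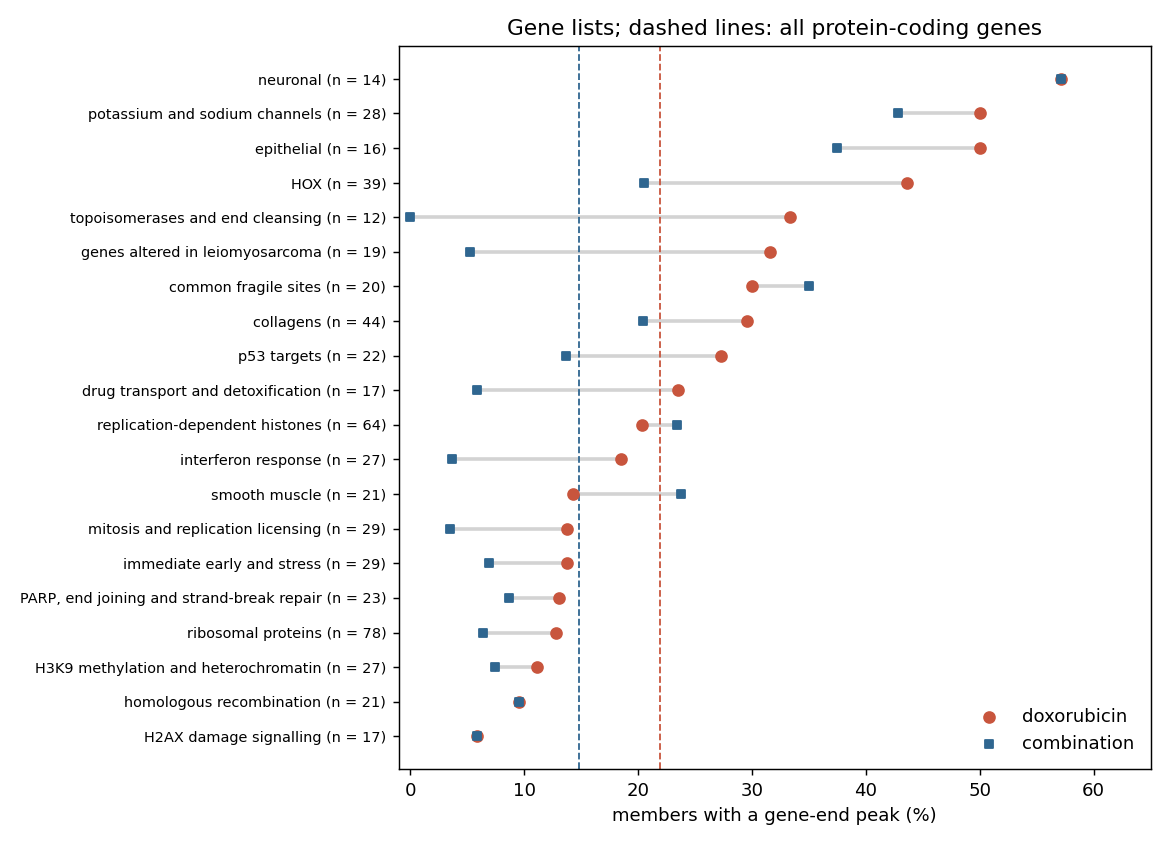
Percent of members of each of 20 gene lists with a gene-end peak in the doxorubicin (circles) and combination (squares) libraries, with dashed lines at 21.9% and 14.8% for all protein-coding genes. The square lies left of the circle in 14 lists, and at 0 for the topoisomerase list.

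The promoters shown at the opening belong to classes that differed in CG content. A peak over the stretch from 250 bases before to 50 bases after the start was found in both libraries at 494 of 15811 genes with a promoter sequence, with doxorubicin alone at 619 and with the combination alone at 330. The stretch held 20 or more CG in 61.1% (56.7 to 65.5) of promoters with peaks of both. For doxorubicin alone this was 49.3% (45.3 to 53.3), for the combination alone 48.8% (43.3 to 54.3), and for all promoters 56.0%. Median GC content was 65.3%, 63.3%, 63.0% and 62.7% in the same order. The hexamer GGGCGG, read on both strands, was present in 65.8%, 58.2% and 57.3% of the 3 classes and in 58.5% of all promoters; it holds a CG itself, so it is not independent of CG content. The promoters with one-sided peaks thus resembled each other in these counts and had fewer CG-rich members than those with peaks of both.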

How the data were processed

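γH2AX was immunoprecipitated from SK-UT-1 cells and sequenced in 4 libraries, 1 per condition, of which the doxorubicin and combination lists were compared. Per the submitters' processing notes, Bowtie2 2.4.2, Picard 2.25.3, bedtools 2.30.0 and MACS2 2.2.7.1 were used with build hg38. Their roles, the read filters and whether an input served as control: not given in the sources used here. The authors deposited peak intervals with a score, a fold enrichment over local background (a ratio), and −log10 p and −log10 q values; no read counts were used, so library depth is unknown.

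Intervals that overlapped or touched were merged and kept on chromosomes 1 to 22 and X. A merged peak took the values of its strongest interval. For every summit, its fragments and its background were worked out from deposited fold and −log10 p values under a Poisson model with a pseudocount of 1 (tolerance 0.002), a method tested on simulated data; the commonest background was taken as the genome-wide one. Gene positions came from RefSeq GRCh38.p14, and promoter sequences from the same source. Python 3.11.15, numpy 2.4.6, scipy 1.17.1, pandas 2.3.3, matplotlib 3.10.9 and bedtools 2.31.1 were used. Intervals are exact Clopper-Pearson; a ratio's interval was taken from that of the combination's share of the summed peaks.

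Named genes were the 10 of highest fold with a peak in 1 library alone (−log10 q of 5 or more) in either direction, the 10 with peaks of both whose lower fold was highest, and up to 6 per list by fold; other list members were named after their values were seen. Bins with more doxorubicin peaks were named by the 5 largest excesses. On the combination side the bins with an excess of 6 were named. Of the 6 bins tied at an excess of 5 only some were named, outside this rule. The members and lists were chosen with earlier results of these data known. Alternatives were a −log10 q limit, equal list lengths, a common p limit, joined peaks, all contigs, reciprocal overlap, other windows and bins, and a summit limit. A few list members are not reported here.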

Additional observations from a re-analysis of the deposited data

Results flagged for a closer look

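In 3 gene lists the number of members with a gene-end peak differed in direction between the inhibitor contrasts with and without doxorubicin. Smooth muscle genes numbered 2 more in the combination than with doxorubicin, against -3 for OTS186935 minus DMSO. Replication-dependent histone genes numbered 2 more, against -14. Common fragile site genes numbered 1 more, against -4. With windows of 2.5 kb the direction differed for the histone genes alone of these lists: smooth muscle genes numbered 6 with doxorubicin and 5 with the combination, and fragile site genes 9 and 9. Each contrast rests on 1 library a side and the differences were not tested. They are small counts, histone genes share peaks, and over all genes both contrasts ran toward fewer peaks with the inhibitor.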

How the results depend on the processing

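No paired analysis was possible because each condition had 1 library and the labels give no replicate numbers; for the same reason no library could be left out. The dense over gene-poor ratio, 0.989 with an interval that includes 1, was 1.02 with lists of equal length, 1.02 with a common p limit and 1.03 with bins of 0.5 Mb, so it has no settled direction over all peaks. The order of some small gene lists also turned, for example: smooth muscle genes numbered 6 with doxorubicin and 5 with the combination in windows of 2.5 kb, and ion channel genes 9 and 12 and meiosis and piRNA genes 19 and 20 at summits of 6 or more fragments. With both lists limited to a −log10 q of 5 or more, combination peaks per doxorubicin peak were 0.520. The shared part was then 22.5% of combination and 11.7% of doxorubicin peaks. Here a strong peak that overlapped only a weaker one no longer counted as shared. Against the full other list, 1572 of 2475 such combination and 2589 of 4762 such doxorubicin peaks were shared. Gene-end peaks within the limit were found in both libraries at 58 genes, in the combination only at 165 and in doxorubicin only at 464. At that limit the combination had more peaks in 22.96% of 1 Mb bins, the ratio in bins with 20 or more genes was 0.481 times that in bins without genes (0.989 for all peaks), and the shared part differed between the widest and narrowest 25% by 8.90 percentage points for doxorubicin and 25.2 for the combination (33.8 and 39.0 for all peaks). With lists of equal length the peak ratio was 1 by construction, the shared part was 34.8% of combination and 34.6% of doxorubicin peaks, genes with doxorubicin peaks only numbered 1493, the combination had more peaks in 43.0% of bins, and the width differences were 37.3 and 34.9. A common p limit gave a ratio of 0.632 and 27.8% of doxorubicin peaks shared. Joining peaks within 1 kb gave a width difference of 36.0 for doxorubicin. Reciprocal overlap of 50% gave 35.04% and 21.6% shared and width differences of 25.2 for doxorubicin and 34.2 for the combination. Windows of 2.5 kb gave 3146 genes with peaks of both. Bins of 0.5 and 2 Mb gave 11.1% and 2.83% with more combination peaks. A limit of 6 or more summit fragments in both lists was chosen after the data had been seen. With it the ratio was 0.753, the shared part 42.2% and 31.7%, the bins 27.5% and the dense over gene-poor ratio 0.674. Apart from the equal lengths, which are set by construction, the cause of these shifts was not tested. Library depth is unknown, and with a median summit of 7 fragments the absence of a peak does not show the absence of γH2AX.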

Other observations

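Genes of meiosis and of the piRNA pathway, which silences transposons in the germ line, stood out among genes with peaks of both libraries, in a list made after that was seen, so it carries no test. Of 53 such genes, 25 had a gene-end peak with doxorubicin and 22 with the combination, beside 34 in DMSO and 31 with OTS186935, and 20 (37.7%) had one in both of the pair, where 9.3% of all genes did. The meiotic break genes MEI4 (7.20-fold with doxorubicin, 9.42-fold with the combination), SPO11 (7.54 and 6.78) and REC114 (5.99 and 5.43), the synaptonemal complex genes SYCP1, SYCP2 and SYCP3, the crossover genes MSH4 and SHOC1, the recombination hotspot gene PRDM9 and the piRNA genes PIWIL2, ASZ1 and TDRD15 (5.04 and 8.01) were among them. HORMAD1, PIWIL1, RNF212, TEX12 and TEX15 had a peak with doxorubicin alone, and STK31 and GTSF1 with the combination alone. Peaks lay at the start of 24 genes with doxorubicin and 21 with the combination. The number with peaks of both was 24 with windows of 2.5 kb, 18 with lists of equal length, 17 with summits of 6 or more fragments and 2 at a −log10 q of 5 or more. These are 45.3%, 34.0%, 32.1% and 3.77% of the list, beside 15.8%, 7.36%, 7.30% and 0.290% of all genes in the same order. These genes are silent in most somatic cells, and neither their expression nor the number of gene copies in SK-UT-1 was measured here.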
